A study of Rattus norvegicus with 31 samples.

Results

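The data described here are the levels of 9 genes of fatty acid synthesis and of its control by glucose and insulin in rat liver, out of 26312 genes counted and 19904 genes tested. The members were found by their symbols in the deposited tables. All 9 were present in both tables and all 9 passed the low count filter of the study, a sum of at least 2 reads over all livers. The enzymes are Acly, Acaca, Fasn, Elovl6 and Me1, the transcription factors are Srebf1 and Mlxipl, and Thrsp and Pnpla3 are further genes of the lipogenic programme. A second row carries the symbol ELOVL6 in capitals under another identifier. It held between 0 and 6 counts per liver and was not taken as a member.

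Total RNA was sequenced from the livers of 31 young adult female Wistar rats (Crl:WI), 1 library per rat, with each rat as an independent biological replicate. All rats were dosed by gavage every day for 28 days, and the 8 controls received the vehicle, 0.5% carboxymethyl-cellulose in water. Treated rats received the neonicotinoid insecticide thiacloprid (THI) at 108 mg/kg bw/day (4 rats), the azole fungicide imazalil (IMZ) at 93 mg/kg bw/day (4 rats) or the neonicotinoid clothianidin (CTD) at 288 mg/kg bw/day (3 rats). The mixtures, with 4 rats each, held THI and IMZ at 54 and 46 mg/kg bw/day, THI and CTD at 54 and 134 mg/kg bw/day, or IMZ and CTD at 46 and 135 mg/kg bw/day. The doses of the compounds differ, so their values are given side by side and the compounds were not compared with each other. The labels do not give the feeding state of the rats or the hour of killing. In the CTD group used here, the study marks at least 1 further rat as killed in moribund condition, and the other groups used here carry no such mark.

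Liver turns surplus carbohydrate into fat. Citrate leaves the mitochondria and is split by ATP citrate lyase (Acly), acetyl-CoA carboxylase (Acaca) makes malonyl-CoA, fatty acid synthase (Fasn) builds palmitate, and Elovl6 lengthens it. Malic enzyme (Me1) supplies NADPH for the synthesis. SREBP-1 (Srebf1) carries the insulin signal and ChREBP (Mlxipl) the glucose signal to the promoters of these enzymes, and the programme is high after feeding and low in fasting.

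The libraries held 32.7 to 101 M counts in controls (median 60.5 M) and 31.8 to 54.8 M in treated rats (median 40.2 M). Levels are given as CPM, counts relative to the TMM-scaled library total, and are compared between rats and not between genes, as they are not divided by transcript length. The least covered members were Elovl6, which lay between 0.546 and 9.1 CPM, and Pnpla3, which fell to 1.24 CPM (41 counts) in its lowest liver. The 6 summed hepatocyte markers (Alb, Ttr, Apoa1, Serpina1, Cps1 and Hnf4a) reached 139671 to 196056 CPM in controls and 121578 to 204764 CPM in treated rats. Of these markers the apolipoprotein Apoa1 was higher in THI+IMZ (log2 fold change 0.85 ± 0.18, adjusted p 0.0121, edgeR). Serpina1, a secreted protease inhibitor, was lower in THI+CTD (-0.43 ± 0.08, adjusted p 0.00228, edgeR), with all 4 rats below every control. The part of these markers in the results below was not tested. In whole liver, fewer cells of a type and less RNA per cell cannot be told apart.

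Me1 rose in THI, CTD and THI+CTD, and the other 8 members did not pass the test in any comparison. By the quasi-likelihood test of edgeR with Benjamini-Hochberg adjustment over all 19904 genes (threshold 0.05), 1 of 9 members was called in THI, where 0.543% of all genes were called, 0 of 9 in IMZ (0.251%), 1 of 9 in CTD (12.7%), 0 of 9 in THI+IMZ (1.18%), 1 of 9 in THI+CTD (4.39%) and 0 of 9 in IMZ+CTD (1.46%). The called member was Me1 each time, and 0 members were called lower. At an unadjusted p below 0.05, Me1 stood alone in THI, IMZ and CTD, with Fasn and Srebf1 in THI+IMZ and with Pnpla3 in THI+CTD, and Mlxipl stood alone in IMZ+CTD. The share of all genes at this unadjusted cut is not given, so these genes cannot be set against it. By the Wald test of DESeq2 1 member was called in IMZ, Me1, and 0 in THI+IMZ and in IMZ+CTD. Over all genes, the shares called higher were 0.377%, 0.191%, 6.62%, 0.849%, 2.67% and 1% in the order above, and those called lower were 0.166%, 0.0603%, 6.03%, 0.332%, 1.71% and 0.452%. The 6 comparisons share the 8 controls.

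**Figure D1:**
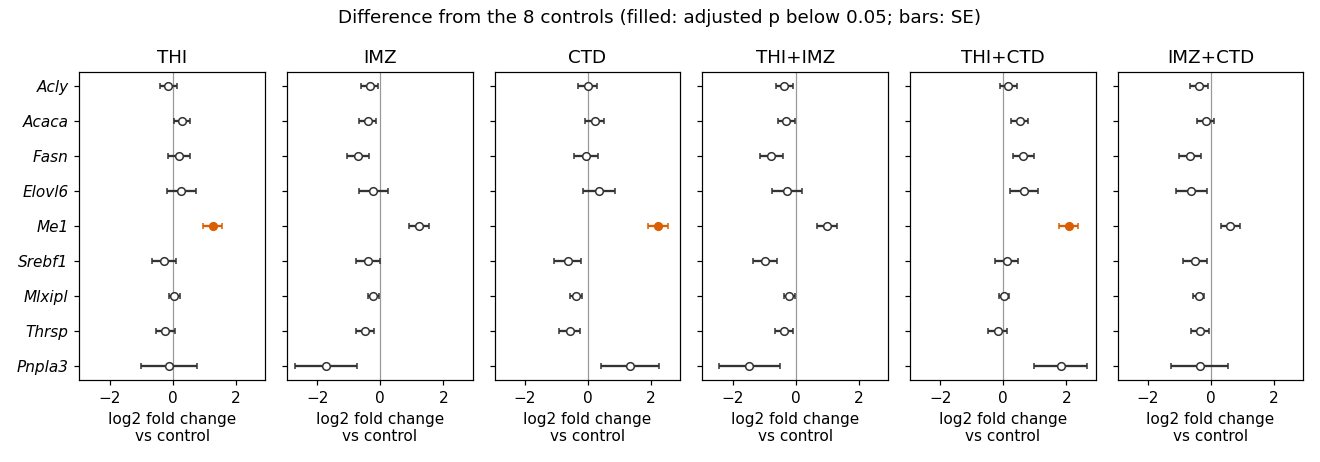
Log2 fold change of each of the 9 genes (vertical axis) against the 8 controls, in 1 panel per treatment, with the SE as bars and filled points for an adjusted p below 0.05. Me1 lay at 1.27 in THI, 2.23 in CTD and 2.08 in THI+CTD, the 3 filled points, and Pnpla3 had the widest bars.

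Malic enzyme was low in the controls, at 36, 21.2, 22.7, 54.7, 43.6, 24.4, 27.2 and 20.7 CPM for replicates 1 to 8. The THI rats had 84.1, 97.7, 54 and 67.3 CPM. The CTD rats had 101, 281 and 59.8 CPM. All 3 CTD rats and 3 of 4 THI rats lay above every control, and THI replicate 3 lay just under the highest control. In THI+CTD the rats had 76.8, 212, 184 and 56.6 CPM, again all above the controls. The IMZ rats (70.5, 78.2, 90.1 and 55 CPM) and the THI+IMZ rats (59.8, 61.6, 61.8 and 66.4 CPM) were above every control as well, IMZ replicate 4 by a narrow margin. The IMZ+CTD rats, with 51.1, 48.2, 54 and 38.9 CPM, overlapped with the upper controls. All 23 treated rats lay above the median of the controls. Of all genes tested, the share with every treated rat above every control was 0.734% in THI, 0.713% in IMZ, 5.33% in CTD, 0.794% in THI+IMZ, 2.14% in THI+CTD and 1.61% in IMZ+CTD.

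On the log2 scale Me1 was 2.23 ± 0.32 (SE) higher in CTD than in controls, a 4.69-fold difference with an adjusted p of 1.39e-05 (edgeR). In THI+CTD it was 2.08 ± 0.30 higher, 4.23-fold, with an adjusted p of 7.25e-05 (edgeR). In THI it was 1.27 ± 0.30 higher, 2.42-fold, with an adjusted p of 0.0445 (edgeR). This last call is close to the threshold and was kept in 3 of the 12 fits that left out 1 THI or control rat, while the calls in CTD and THI+CTD were kept in all 11 and all 12 such fits. Without CTD replicate 2, the highest Me1 of all 31 livers, the difference in CTD was 1.35. The difference was 1.23 ± 0.30 in IMZ (adjusted p 0.0847), 0.99 ± 0.31 in THI+IMZ (adjusted p 0.127) and 0.62 ± 0.31 in IMZ+CTD (adjusted p 0.405), and these did not pass.

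The promoters of 3 members are shown because Me1 was the called member, Acly stands upstream of it in the pathway, and Pnpla3 had the widest spread between rats. The windows run from 250 to 51 bases before the RefSeq start of the gene (build GRCr8) and are printed 5′ to 3′ in the direction of the gene. In Me1 the capitals mark the letters TGACNNNGC, the core of an antioxidant response element, and the GC box GGGCGG. In the other promoters they mark the CCAAT box and the GC box. The motifs were searched on both strands and do not overlap here.
Me1 (chr8:96540295-96540494, minus strand): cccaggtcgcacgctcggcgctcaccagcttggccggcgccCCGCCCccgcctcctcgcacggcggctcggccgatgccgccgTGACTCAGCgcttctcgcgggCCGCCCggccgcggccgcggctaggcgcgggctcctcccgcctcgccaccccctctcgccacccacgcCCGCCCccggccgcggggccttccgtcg
Acly (chr10:85963682-85963881, minus strand): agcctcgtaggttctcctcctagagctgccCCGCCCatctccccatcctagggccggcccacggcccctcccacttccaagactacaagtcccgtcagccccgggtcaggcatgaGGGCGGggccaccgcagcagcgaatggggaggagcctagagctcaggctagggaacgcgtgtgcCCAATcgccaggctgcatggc
Pnpla3 (chr7:117173278-117173477, plus strand): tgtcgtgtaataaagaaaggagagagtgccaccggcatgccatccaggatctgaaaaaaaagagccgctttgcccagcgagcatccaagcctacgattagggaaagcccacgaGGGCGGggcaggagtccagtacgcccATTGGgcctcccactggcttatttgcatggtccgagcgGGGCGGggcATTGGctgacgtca

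The table of RefSeq promoters used here matched 6 of the 9 members, Acly, Me1, Srebf1, Mlxipl, Thrsp and Pnpla3. The promoters of Fasn, Acaca and Elovl6 were not analysed here. In the 250 bases before the start, CCAAT stood in 5 of these 6 members and in 34% of all 33469 windows, with Me1 as the member without it. GGGCGG stood in 5 of 6 members, all but Mlxipl, and in 30.5% of all windows. The member counts are per gene and the shares per window. Srebf1 and Mlxipl had 2 windows each and were counted if either matched. TGACNNNGC, which was looked for after the sequences had been seen, stood in Me1 from base -167 to base -159 relative to the start and in 10.1% of all windows. The sterol regulatory element TCACNCCAC (0.974% of windows) and the E-box CACGTG (5.59%) matched in 0 of the 6 members. For the element that ChREBP binds, only 2 exact copies of CACGTG spaced by 5 bases were sought, and these matched in 0 of the 33469 windows. Inexact copies were not sought, so this result does not show whether the members hold such an element. These are matches of letters in a short window.

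The other enzymes of the pathway had no called difference. Acly was 338 to 949 CPM in controls, with a median of 509.9 CPM, and its log2 fold changes lay between -0.38 in IMZ+CTD and 0.15 in THI+CTD. The smallest adjusted p for Acly in the 6 comparisons was 0.615 (edgeR). The CTD rats had 334, 860 and 405 CPM. Replicate 2 was thus among the highest of all livers, while replicate 1 lay just below the lowest control and replicate 3 in the lower range of the controls.

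Acaca, the step that commits carbon to fatty acids, was 107 to 258 CPM in controls. It had 142, 313, 324 and 102 CPM in THI+CTD, with replicates 2 and 3 above every control and replicate 4 below every control. Its log2 fold change in THI+CTD was 0.52 ± 0.26 with an adjusted p of 0.303 (edgeR). The IMZ rats, at 116, 127, 126 and 99.3 CPM, were all under the median of the controls, with a log2 fold change of -0.40 ± 0.27 (adjusted p 0.749).

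Fasn, the enzyme that assembles the chain, was 712 to 2309 CPM in controls. In IMZ (599.7, 1075, 777 and 670.3 CPM), in THI+IMZ (811, 624, 709 and 837 CPM) and in IMZ+CTD (1007, 810.1, 773 and 616 CPM), all 12 rats lay under the control median. The log2 fold changes were -0.71 ± 0.36, -0.77 ± 0.36 and -0.67 ± 0.36 in this order, with adjusted p of 0.643, 0.418 and 0.449 (edgeR), so none of the 3 passed. In CTD the rats had 647, 2393 and 618 CPM, 1 rat above and the other two below every control. In THI+CTD they had 991, 3252, 2860 and 796 CPM, and the log2 fold change was 0.63 ± 0.34 (adjusted p 0.342).

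Elovl6, which lengthens palmitate, was the least covered member, with 0.784 to 5.95 CPM in controls. The THI rats were close together at 3.93, 3.66, 3.64 and 3.76 CPM. The THI+CTD rats were far apart at 2.14, 9.1, 7.13 and 1.27 CPM. Its log2 fold changes ran from -0.63 ± 0.49 in IMZ+CTD to 0.67 ± 0.45 in THI+CTD, and the smallest adjusted p was 0.464 (edgeR).

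Srebf1, the insulin-responsive regulator, was 468 to 888 CPM in 7 of 8 controls and 184 CPM in Control replicate 2. All 4 THI+IMZ rats (231, 191, 280.3 and 472 CPM) lay under the control median, and the log2 fold change of -0.97 ± 0.38 was the lowest of Srebf1 in the 6 comparisons (adjusted p 0.304, edgeR). The CTD rats had 177, 761 and 164 CPM. Replicates 1 and 3 were below every control and replicate 2 was among the high controls. The log2 fold change in CTD was -0.64 ± 0.42 (adjusted p 0.366), and without replicate 2 it was -1.75 ± 0.46 with an adjusted p of 0.0128 (edgeR). The fit without replicate 2 held only the CTD livers that were below every control. A split of the same form was present in THI+CTD, with 341, 947, 900.1 and 272 CPM.

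Mlxipl, the glucose sensor, varied least between rats. It was 50.9 to 75.1 CPM in 7 of 8 controls and 31.4 CPM in Control replicate 2. Its log2 fold changes lay between -0.39 ± 0.17 in IMZ+CTD and 0.05 ± 0.17 in THI. All 3 CTD rats (31.8, 45 and 56.5 CPM) were under the control median, with a log2 fold change of -0.37 ± 0.19 and an adjusted p of 0.237, the smallest for Mlxipl (edgeR).

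Thrsp, a small protein that promotes lipogenesis under thyroid hormone and carbohydrate, was 671 to 1431 CPM in controls. Its log2 fold change was negative in all 6 comparisons, from -0.58 ± 0.33 in CTD to -0.18 ± 0.29 in THI+CTD, and the smallest adjusted p was 0.289 (edgeR). The CTD rats had 366, 1153 and 390.2 CPM. Replicates 1 and 3 lay below every control, and without replicate 2 the log2 fold change was -1.33 ± 0.36 with an adjusted p of 0.0162 (edgeR). The count of called members in CTD thus went from 1 to 3 of 9 without this liver. That fit held only CTD replicates 1 and 3, and the liver left out was the highest of its group for 8 of 9 members. The share of all genes called in that fit is not given here.

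Pnpla3, a lipid droplet protein under the control of SREBP-1 and ChREBP, covered the widest range of the 9 genes, from 1.24 to 155 CPM over the 31 livers, a 125-fold range. Controls had 15.2, 1.24, 8.66, 68.7, 41, 5.07, 14.2 and 13.7 CPM. The CTD rats had 4.47, 152 and 4 CPM, and the THI+CTD rats had 6.7, 134, 155 and 2.23 CPM. The log2 fold change in THI+CTD was 1.82 ± 0.84 (adjusted p 0.252) and in CTD 1.34 ± 0.92 (adjusted p 0.394, edgeR). Without CTD replicate 2 the latter was -2.31 ± 1.24 (adjusted p 0.288), so the direction in CTD was set by 1 liver.

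**Figure D2:**
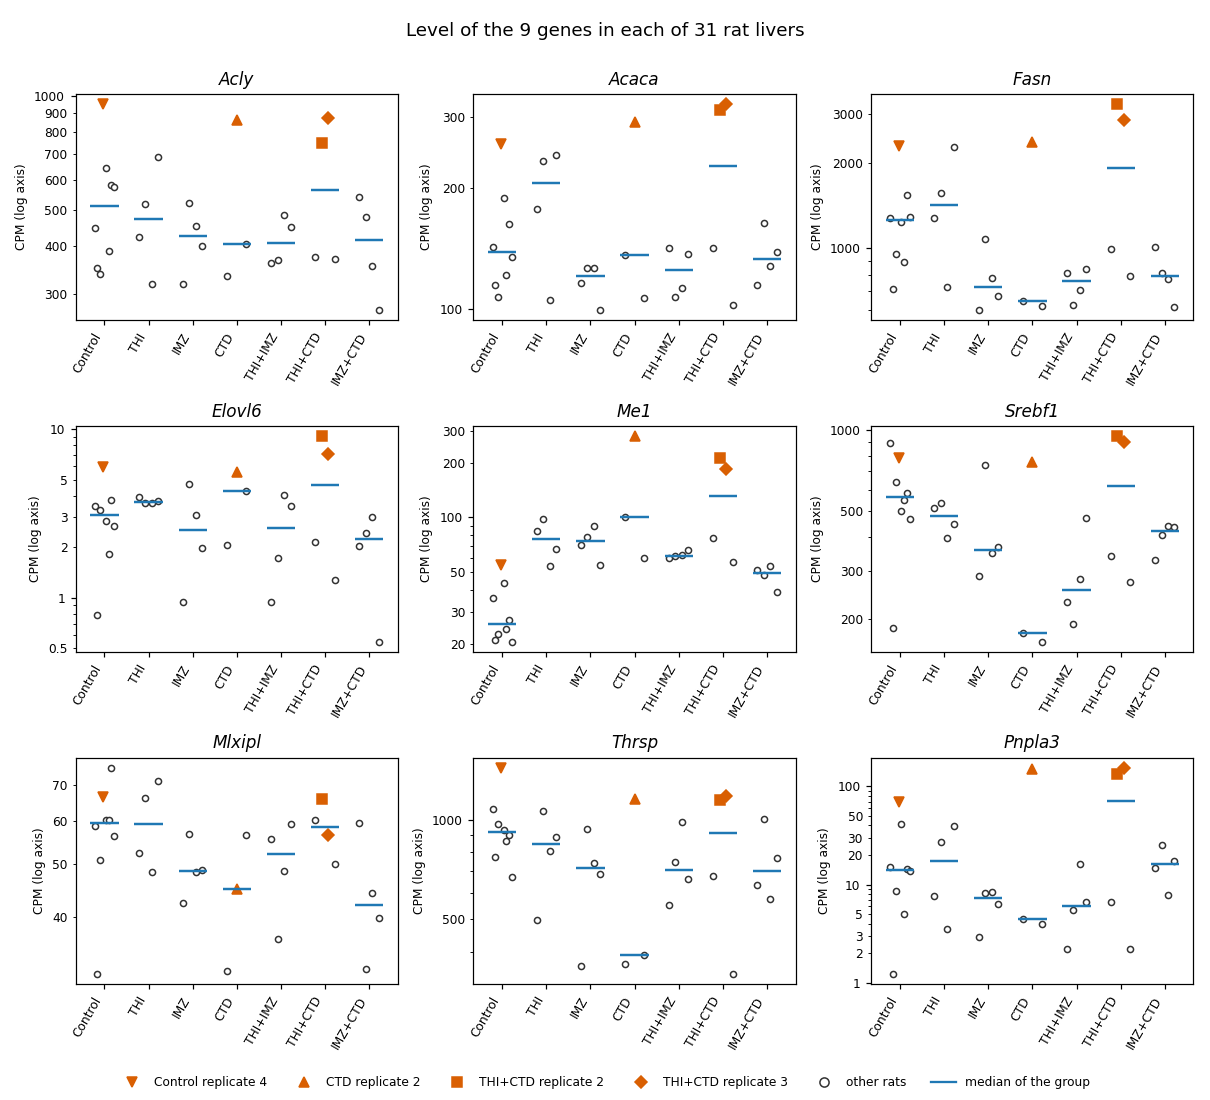
Level of each of the 9 genes in CPM (vertical axes, log scale) in each rat by treatment group, with group medians as lines and 4 livers drawn as filled symbols. CTD replicate 2 and THI+CTD replicates 2 and 3 stood at or near the top in most panels, and in the Me1 panel the treated groups also lay above most controls.

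The spread between rats of a group was larger for these genes than for most. The within-group SD of log2 CPM was 1.86 for Pnpla3, 0.92 for Elovl6, 0.69 for Srebf1, 0.64 for Fasn, 0.58 for Me1, 0.54 for Thrsp, 0.49 for Acly and for Acaca, and 0.32 for Mlxipl. The median over the 11297 genes with an average log2 CPM above 0 was 0.19. Of these genes, 99.8% had a smaller SD than Pnpla3 and 80.9% a smaller SD than Mlxipl, with the other members between 94.1% and 98.9%.

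The same livers were high or low for most members. CTD replicate 2 was the highest of its group for 8 of 9 members, all but Mlxipl. Control replicate 4 was the highest control for 7 of 9, and IMZ replicate 2 the highest IMZ rat for 7 of 9. THI+CTD replicate 4 was the lowest of its group for all 9, THI replicate 3 for 8 and IMZ replicate 1 for 7. Over all 31 livers, the 4 highest values held THI+CTD replicates 2 and 3 and Control replicate 4 for 8 members each and CTD replicate 2 for 7 members. High livers were thus present in the controls as well.

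Deviations of log2 CPM from the group mean were therefore correlated between members over the 31 rats. All 36 pairs were positive, with a median Pearson r of 0.706 and a range from 0.213 to 0.917. After adjustment over the 36 pairs, 33 had a p below 0.05 for Pearson's r and 31 for Spearman's rho (permutation test, 100000 permutations within groups, two-sided). For each pair, the 2 rats farthest from the median of 1 of its genes were then left out, so these rats could differ between pairs. The gene used was the one that comes first in the order Acly, Acaca, Fasn, Elovl6, Me1, Srebf1, Mlxipl, Thrsp, Pnpla3. The median r was then 0.655. Within the 8 controls alone the 36 pairs were also all positive, with a median r of 0.734, and within the 23 treated rats the median was 0.735.

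The closest pair was Acly and Fasn, with r = 0.917 and rho = 0.892 (permutation test, adjusted p 0.00012 and 0.00018), and r = 0.892 without the 2 farthest rats. Me1 followed Acaca with r = 0.883 and rho = 0.789 (permutation test, adjusted p 0.00012 and 0.00072), and r = 0.839 without the 2 farthest rats. Mlxipl was the member with the weakest relations, with r = 0.213 and rho = 0.177 to Thrsp (permutation test, adjusted p 0.288 and 0.4), and r = 0.113 without the 2 farthest rats. Its median r to the other 8 members was 0.439, against 0.808 for Fasn and 0.823 for Pnpla3.

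**Figure D3:**
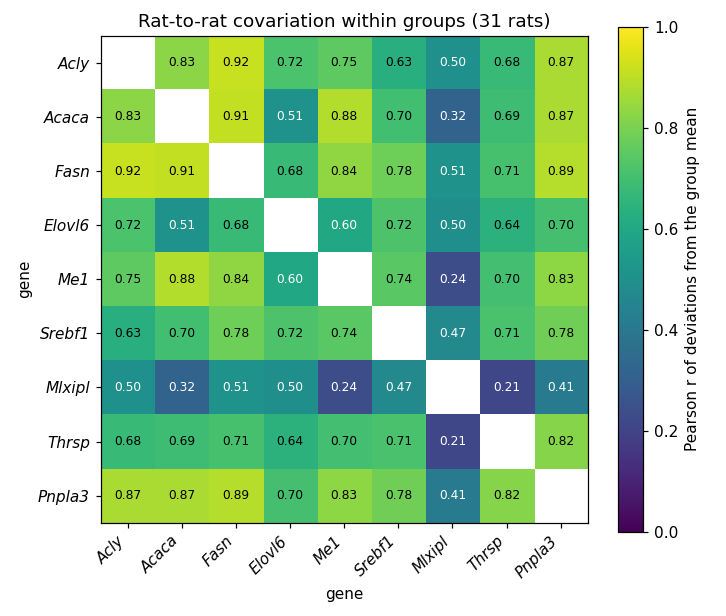
Pearson r of the deviations of log2 CPM from the group mean for each pair of the 9 genes over 31 rats (both axes list the genes, colour gives r). Acly, Acaca, Fasn and Pnpla3 form the brightest block, and the row of Mlxipl is the darkest, down to 0.213 with Thrsp.

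Over all 31 livers, groups included, the r of Me1 with the mean of the other 8 members was 0.417, the lowest of the 9, against 0.927 for Fasn, 0.885 for Pnpla3 and 0.500 for Mlxipl. These values are descriptions, over libraries that share their group. Expressed as a percentage of the Acly level of the same liver, Me1 was 3.60% to 8.08% in controls. It was 9.79% to 19.8% in THI, 13.7% to 22.1% in IMZ, 14.8% to 32.6% in CTD, 12.8% to 16.8% in THI+IMZ, 15.3% to 28.3% in THI+CTD and 9.48% to 15.2% in IMZ+CTD. All 23 treated rats lay above all 8 controls by this measure, IMZ+CTD included.

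The same separation of 23 from 8 rats was found with Acaca, Mlxipl and Thrsp in the place of Acly. With Fasn 22 treated rats were above all controls, with Srebf1 21, with Elovl6 10 and with Pnpla3 4. Among 11276 other genes used in this way, 1.56% separated all 23 treated rats from the controls. The ratio was formed after the values had been seen and was not tested.

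**Figure D4:**
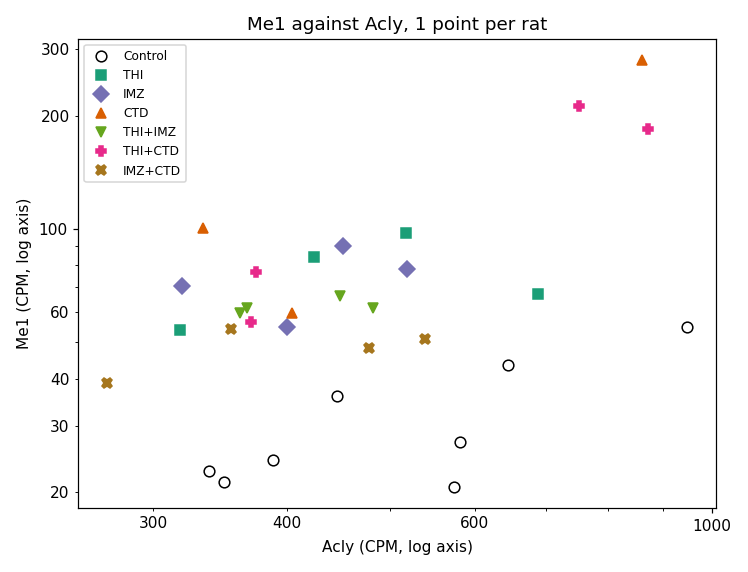
Me1 level against Acly level in CPM (both axes on a log scale), 1 point per rat, with open circles for the 8 controls and filled symbols for the 6 treatments. At a given level of Acly the treated rats lay above the controls, and within groups both genes deviated together (Pearson r of 0.752).

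The log2 fold change of each mixture was set against the dose-weighted sum of those of its compounds (THI and IMZ weighted by 0.5 and CTD by 0.47). The study used such sums as theoretical values, and judged dose addition by dose-response modelling of quantitative PCR data. It states that mixture models cannot be applied to a single dose level, so the sums are no full test of dose addition. Of the 9 members, 0 were off this sum in THI+IMZ, THI+CTD or IMZ+CTD by the edgeR test, where 0.0151%, 0.286% and 1.16% of all genes were. The Wald test of DESeq2 also found 0. At an unadjusted p below 0.05 (edgeR) there were 0, 0 and 1 members. The 1 was Me1 in IMZ+CTD, at -1.05 ± 0.33 on the log2 scale from the sum (p 0.00372 before and 0.118 after adjustment, edgeR). In THI+CTD Me1 was 0.40 ± 0.31 above the sum (adjusted p 0.727), and in THI+IMZ it was -0.26 ± 0.32 from it (adjusted p 0.9998).

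Among 10961 genes, those whose level was most like the mean of the members over the 31 livers included Gpam (r = 0.893), Pdk1 (0.845), Dock6 (0.832) and Acacb (0.817). Gpam starts triglyceride synthesis, Pdk1 restrains pyruvate dehydrogenase and Acacb is the mitochondrial form of acetyl-CoA carboxylase. Of these 4 genes, 0 were called in any comparison with control by edgeR, and 0 had an unadjusted p below 0.05.

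Further genes of glucose use, lipid synthesis and the control of SREBP-1 and ChREBP were read from 3 lists of 49 genes, of which 48 were tested. The study used uniquely mapped reads, so reads that fitted both Scd and Scd1 would be missing from both rows. How far this affected their values was not tested, so these are uncertain. Neither gene was called in any comparison with control by edgeR. In CTD 8 of 48 were called (1 higher, 7 lower), where 12.7% of all genes were called. In THI+CTD 8 of 48 were called (5 higher, 3 lower), against 4.39% of all genes. There were 2 in THI+IMZ (1 higher, 1 lower, against 1.18% of all genes) and 1 in THI (lower, against 0.543%). By edgeR 0 were called in IMZ (0.251%) and IMZ+CTD (1.46%), where the Wald test of DESeq2 called 2 in each. Over the 3 lists in the order below, 3, 2 and 1 genes had an unadjusted p below 0.05 in IMZ, and 2, 3 and 2 in IMZ+CTD. Without the share of all genes at this cut, such counts here and below do not show a response of a list. The shares of all genes called by edgeR apply to the counts of each list below as well.

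Among 13 genes of glucose uptake, glycolysis and NADPH supply, Arrdc4, an arrestin that is a target of ChREBP, fell most widely. It was 10.2 to 15.8 CPM in controls. The THI+CTD rats had 8.14, 6.04, 6.09 and 7.77 CPM, all under every control, with a log2 fold change of -0.98 ± 0.19 (adjusted p 0.00179, edgeR). The log2 fold change in IMZ was -0.75 ± 0.18 with all 4 rats under every control, but it did not pass (adjusted p 0.0771, edgeR). In IMZ+CTD it was 0.04 ± 0.18 (adjusted p 0.968). Arrdc4 fell also in THI (-0.77 ± 0.18, adjusted p 0.0445), THI+IMZ (-0.76 ± 0.18, 0.0299) and CTD (-0.71 ± 0.21, 0.0185). It was the one pathway gene called in THI, where the count was 0 under the replicate block, with only the groups compared, and in each fit that left out 1 rat, apart from those without Control replicate 2, Control replicate 4 or THI replicate 4. In THI+IMZ the count was 0 under the block and without THI+IMZ replicate 2 or 4. Its relative Txnip, also a ChREBP target, fell in THI+CTD by 0.42 ± 0.11 on the log2 scale (adjusted p 0.0159, edgeR). In IMZ Txnip was at -0.43 ± 0.11 with all 4 rats under every control, and did not pass (adjusted p 0.0872, edgeR). It was at -0.24 ± 0.12 in CTD (adjusted p 0.192) and between 0.02 and 0.08 in THI, THI+IMZ and IMZ+CTD. Pfkfb1, the liver enzyme that sets fructose 2,6-bisphosphate, rose in CTD (25.2, 43.3 and 23.7 CPM against 6.13 to 27.7 CPM in controls, log2 fold change 1.25 ± 0.34, adjusted p 0.0134, edgeR) and in THI+CTD (1.19 ± 0.32, 0.0238). Khk, which phosphorylates fructose, fell in CTD by 0.51 ± 0.13 (adjusted p 0.00847, edgeR). The median log2 fold change of this list was -0.10 in CTD and 0.09 in THI+CTD, against -0.07 and -0.03 over all genes tested.

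Among 20 genes of fatty acid modification and triglyceride synthesis, 3 rose in THI+CTD. These were Acss2, which makes acetyl-CoA from acetate (log2 fold change 0.64 ± 0.18, adjusted p 0.0371, edgeR), the desaturase Fads1 (0.53 ± 0.14, 0.0259) and Dgat1, which completes triglycerides (0.25 ± 0.07, 0.0326). Dgat2, the other enzyme of that last step, fell in CTD by 0.50 ± 0.15 (adjusted p 0.0268, edgeR). By edgeR 0 genes of this list were called in THI, IMZ, THI+IMZ and IMZ+CTD, and 5, 2, 4 and 3 had an unadjusted p below 0.05. Its median was -0.10 in CTD and 0.19 in THI+CTD.

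Among 15 genes of SREBP-1 and ChREBP control, the 4 that fell in CTD were those of insulin signalling, the insulin receptor Insr (-0.28 ± 0.08, adjusted p 0.0137, edgeR), its substrates Irs1 (-0.45 ± 0.10, 0.00183) and Irs2 (-1.24 ± 0.36, 0.0205) and the kinase Akt2 (-0.23 ± 0.06, 0.0101). Irs2 also fell in THI+CTD by 1.71 ± 0.33 (adjusted p 0.00224, edgeR). Its controls ranged from 24 to 98.3 CPM, and the THI+CTD rats had 21.6, 22.9, 17.8 and 6.15 CPM, all below them. Mbtps2, a protease that releases SREBP, rose in THI+CTD (0.52 ± 0.15, adjusted p 0.0461, edgeR) and Insig2, which retains SREBP in the endoplasmic reticulum, in THI+IMZ (0.52 ± 0.12, 0.0222). The median of the list was -0.12 in CTD and -0.04 in THI+CTD.

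Genes of the fasting response were read as well, 9 tested of 11 listed, where G6pc and G6pc1 name the same gene and had no row. Igfbp1, which insulin represses, was 64.2 to 691 CPM in controls. It was 69, 13.3 and 59.5 CPM in CTD and 74.6, 30.4, 17.8 and 5.09 CPM in THI+CTD. The log2 fold changes were -2.77 ± 0.73 (adjusted p 0.00944) and -3.34 ± 0.66 (adjusted p 0.00252, edgeR), with 1 rat in each group inside the control range. Tat, a gluconeogenic amino acid enzyme, fell in CTD by 0.93 ± 0.25 (adjusted p 0.0106) and in THI+CTD by 0.96 ± 0.22 (adjusted p 0.00871, edgeR). Cpt1a, which carries fatty acids into mitochondria, rose in THI+CTD (239.5, 115, 76.3 and 419 CPM against 53.5 to 172 CPM in controls, log2 fold change 1.21 ± 0.30, adjusted p 0.0159, edgeR). Within THI+CTD, replicates 1 and 4, the livers lower for the members, had the higher Cpt1a. The THI+IMZ rats had 276, 214, 156 and 137 CPM of Cpt1a, which was not called there. Its mean was 107 CPM in THI, 114 CPM in IMZ, 94.6 CPM in CTD and 97.8 CPM in IMZ+CTD, against 92.1 CPM in controls. By edgeR 0 of these 9 genes were called in THI, IMZ, THI+IMZ and IMZ+CTD, and 2, 0, 3 and 1 had an unadjusted p below 0.05.

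**Figure D5:**
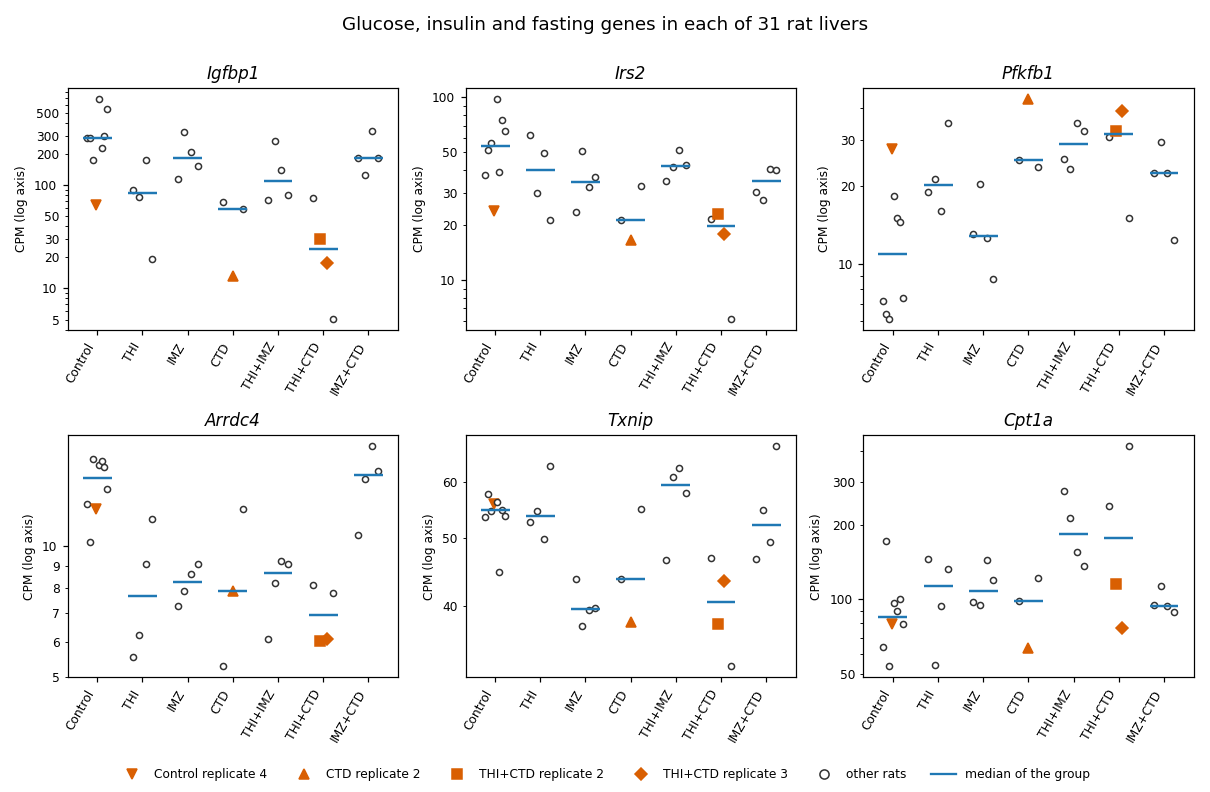
Levels in CPM (vertical axes, log scale) of Igfbp1, Irs2, Pfkfb1, Arrdc4, Txnip and Cpt1a in each rat by treatment group, with group medians as lines. The medians of Igfbp1 and Irs2 were lowest in CTD and THI+CTD, and the filled symbols are the 4 livers that were high for most of the 9 genes.

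Markers of other cells moved with CTD in part. The red blood cell list (Hbb, Hba1, Hba-a2, Alas2, Hemgn and Slc4a1, 5 tested) summed to 22.3 to 52.2 CPM in controls, 124 to 149.8 CPM in CTD and 29.5 to 172 CPM in THI+CTD. In CTD 3 of its genes were called higher and 1 lower, where 12.7% of all genes were called (edgeR). Of the adipocyte list, 5 genes were tested and summed to 7.61 to 20.2 CPM in controls, 6.19 to 7.23 CPM in CTD and 6.13 to 6.88 CPM in THI+CTD. Cfd was called lower in both these groups. In each of them 3 of the 5 were at 0 in every liver, as in IMZ and in THI+IMZ, which held no CTD. In IMZ+CTD 2 of the 5 were at 0 in every liver, in THI 1 and in the 8 controls 0. Adipoq, the defining marker, was at most 0.104 CPM in CTD and 0.0852 CPM in THI+CTD. In controls its median was 0.0274 CPM, and the highest control reached 4.67 CPM. The mean of Cfd was 6.72 CPM in CTD and 6.54 CPM in THI+CTD, against 11.3 CPM in controls. In THI+CTD the Kupffer cell marker Cd163 was lower, and in CTD and in THI+CTD 1 of the 6 stellate cell and fibroblast markers was higher and 1 lower. Of the T and NK cell, sinusoidal endothelial and cholangiocyte lists, 0 genes were called in any comparison by edgeR. The part of these markers in the results above was not tested.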

How the data were processed

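The authors trimmed the paired-end reads of a stranded total RNA kit, mapped them to Rnor_5.0 with STAR 2.5.2b and deposited counts per gene, without normalization, for 31 livers. The annotation release and the strand setting of the counting are not given in the sources used here. The other deposited table gives a signal for 19904 genes, each count over the DESeq2 size factor of its library (authors' version 1.15.1), and served as a check of the gene list. Groups and replicate numbers come from the sample labels.

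Counts were fitted with edgeR 4.0.16 in R 4.3.3 (quasi-likelihood test, the older method and default of this version). Genes summing to at least 2 reads entered the fit, with TMM normalization, 1 model of 7 groups, Benjamini-Hochberg adjustment over all genes and a threshold of 0.05. Each SE was obtained from the log2 fold change and the square root of its F statistic. Log2 CPM used a prior count of 2. The fit was tested on simulated data. All 9 members are named. Of the pathway and fasting lists, genes past the threshold in at least 1 comparison were named, up to 6 per list. The members, lists and tests were chosen with earlier results of these data known. Alternatives were DESeq2 1.42.0 size factors and its Wald test, edgeR's filterByExpr, no filter, only the groups compared, a replicate block, exact dose ratios and leaving out each rat. Total counts per library were 31.8 to 101 M. The deviations of same-numbered rats had a median r of 0.03 (78 pairs), and whether the numbers pair the rats was not tested. Promoters are from RefSeq (GRCr8). Genome positions of the counted genes are not given, as no annotation of Rnor_5.0 was used. A result that the naming rule gave is not reported here.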

Additional observations from a re-analysis of the deposited data

Results flagged for a closer look

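Srebf1 in Control replicate 2 was 184 CPM, far below the other 7 controls at 468 to 888 CPM. The gap to the nearest control was 0.593 of the whole range of the controls, above the 95% critical value of Dixon for 8 samples. Mlxipl in the same liver was 31.4 CPM against 50.9 to 75.1 CPM in the others, with a gap of 0.553 of the range. These were 2 of the 54 groups tested, where chance flags about 1 in 20, and both came from the same liver, which was the lowest control for 5 of the 9 genes.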

How the results depend on the processing

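Over 113 refitted values of Me1, 98 kept their direction and their side of the threshold, 10 lost the call, 5 gained it and 0 changed direction. Its calls in CTD and THI+CTD held in all 7 other settings. In THI 6 of 7 settings kept the call (the replicate block gave an adjusted p of 0.437), in IMZ 2 of 7 settings made one, in THI+IMZ 1 of 7 and in IMZ+CTD 0. Of 904 values of the other 8 genes, 865 were kept, 2 gained a call and 37 changed direction, and the cause was not tested.

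Among settings that keep all rats, the count of called members was 0 in THI under the replicate block, 1 in IMZ under the Wald test and with only the groups compared, and 1 in THI+IMZ with only the groups compared. The count of called pathway genes was 0 in THI under the block and with only the groups compared, 2 in IMZ under the Wald test and with only the groups compared, 0 in THI+IMZ and 2 in THI+CTD under the block. In IMZ+CTD it was 2 under the Wald test and 1 with filterByExpr, no filter, only the groups compared, and the newer quasi-likelihood method, the last added after the data had been seen. Acly in CTD turned from -0.003 to 0.00237 with size factors, 0.0024 by the Wald test, 0.00395 with filterByExpr and 0.0362 under the block. The block also gave -0.0478 for Elovl6 in CTD and -0.156 for Srebf1 in THI+CTD. Over all genes, the Wald test called 199 genes in THI (108 by edgeR), 150 in IMZ (50), 435 in THI+IMZ (235), 1386 in THI+CTD (873), 567 in IMZ+CTD (290), and 54, 174 and 603 off the sums (3, 57 and 230). The block called 45, 23, 1571 in CTD (2518), 53, 348 and 80 against control, and 6 off the THI+IMZ sum. IMZ had 93 with only the groups compared, and IMZ+CTD had 391 off the sum with filterByExpr. Of 78 same-numbered pairs of rats, 16 had r over 0.1, and 52 of 156 comparisons found the own number closest. The count that chance alone would give was not worked out, so these values do not settle whether replicate numbers pair the rats.

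Leaving out 1 rat at a time gave 0 to 1 called members in THI, IMZ and THI+IMZ, 1 to 3 in CTD, and 0 to 1 off the sum in IMZ+CTD (without CTD replicate 3). Called pathway genes were 0 to 1 in THI, IMZ and IMZ+CTD, 3 to 9 in CTD (fewest without CTD replicate 1), 0 to 3 in THI+IMZ and 3 to 9 in THI+CTD (fewest without THI+CTD replicate 2). Log2 fold changes that changed direction ran in THI from -0.35 to 0.0332 for Acly, -0.10 to 0.42 for Fasn, -0.0462 to 0.13 for Mlxipl and -0.70 to 0.45 for Pnpla3. In IMZ, Elovl6 ran from -0.64 to 0.0695. In CTD the ranges were -0.53 to 0.24 for Acly, -0.35 to 0.48 for Acaca, -1.01 to 0.25 for Fasn and -2.31 to 1.91 for Pnpla3. In THI+CTD they were -0.10 to 0.32 for Acly, -0.19 to 0.34 for Srebf1, -0.0706 to 0.0837 for Mlxipl and -0.40 to 0.0708 for Thrsp, and in IMZ+CTD Pnpla3 ran from -0.66 to 0.20.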
